A study of Mus musculus with 6 samples.

Results

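The 9 long noncoding RNAs Malat1, Neat1, Miat, Kcnq1ot1, Gas5, Snhg1, Snhg3, Snhg8 and Snhg12 were followed in Hepa1-6 cells, an established mouse hepatoma line, by RNA-seq after midnolin knockdown. They were chosen by name, as 9 of the 25078 gene rows of the deposited tables, and each had a row. The 6 libraries were 1 of parental cells without vector (wt), 2 of cells with a scramble shRNA vector (scr 25-2 and scr 50-1) and 3 of cells with a midnolin shRNA vector (knockdown 25-3, 50-2 and 50-5). Both kinds of vector were brought in by lentivirus and selected with puromycin, and colonies grown from single cells were then expanded, so that clone and knockdown cannot be told apart. The titles call the knockdown libraries KO while the treatment given is an shRNA vector, and neither the labels nor the paper explains 25 and 50 or says which library came from which clone. The p-values therefore measure the spread between these libraries. RNA was depleted of ribosomal RNA without selection for poly(A) tails, which keeps RNAs such as Malat1 that have none.

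The libraries held 25586301 to 33119710 counted reads, of which the ribosomal transcript Rn45s took 10.1% to 13.1%. Midn, the targeted gene, had an RPKM (reads scaled to exon length and library size) of 59.6 and 50.8 in the scr libraries, 60.5 in wt, and 20.3, 21.8 and 22.1 in the knockdown libraries (log2 fold change -1.38, SE 0.133, FDR 0.00777). The line is labelled a hepatoma, and of 10 hepatocyte markers 6 had an RPKM above 1 in a compared library and 4 were not tested, of which Apoh, Ahsg and Serpina1a were at most at 0.209 in any library and Apoa1 at 0.545 in the compared ones and 1.59 in wt. The summed RPKM of the 10 markers was 5248 in wt, 2926 and 4008 in scr, and 215 to 1008 in knockdown, and none was called by edgeR, with 3 lower and 1 higher at an unadjusted p under 0.05, and 2 lower and 1 higher called by DESeq2. The markers did not move together. Albumin, which makes up much of the sum, had an RPKM of 1877 and 2804 in scr against 336, 62.7 and 20.9 in knockdown. The apolipoprotein gene Apob had 3.00 and 1.07 against 52.2, 37.8 and 4.37 (log2 fold change 3.93), and the hepatocyte transcription factor gene Hnf4a had 33.9 and 11 against 65.5, 65.4 and 29.6 (1.23). Among markers of other cell types, the collagen genes Col1a1, Col1a2 and Col3a1 had an RPKM of at most 0.208, the leukocyte gene Ptprc at most 0.160 and the endothelial gene Cdh5 at most 0.0318. The endothelial gene Pecam1 had 2.85 in wt and at most 0.313 in the compared libraries. The fibroblast marker Dcn was high in all libraries (409 to 1028). Pdgfra, a growth factor receptor of fibroblasts, rose from 0.308 and 0.167 in scr to 2.7, 1.90 and 1.58 in knockdown, and stood at 1.93 in wt (log2 fold change 3.10, FDR 0.0140, or 1.37 and not called with wt added to the controls). The macrophage marker Cd68 had 3.02 and 4.53 in scr against 6.22, 6.88 and 9.21 in knockdown, which DESeq2 called higher and edgeR did not. With wt added to the controls edgeR called Cd68 higher and 2 of 7 hepatocyte markers tested lower. The summed RPKM of the markers was 411 to 1031 for fibroblasts (scr 594 and 562, knockdown 411 to 576), 3.28 to 9.97 for leukocytes and 0.198 to 2.95 for endothelial cells. The part that these differences between the libraries had in the results for the noncoding RNAs was not tested.

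Malat1 and Neat1 are neighbors in the genome and stay in the nucleus, Malat1 in nuclear speckles, where splicing factors gather, and Neat1 as the scaffold of paraspeckles. Kcnq1ot1 is an imprinted RNA, made from the paternal copy and antisense to Kcnq1, that keeps genes around it silent on that copy, and Miat is a nuclear RNA best known from neurons and heart. The Gas5 and Snhg genes are hosts: their primary transcripts carry small nucleolar RNAs (snoRNAs), which are cut out and guide the chemical modification of ribosomal and other RNAs, while the spliced exons code for no known protein and several of them are broken down when translated, by nonsense-mediated decay. Many host genes start in a run of pyrimidines (C and T), the 5′ terminal oligopyrimidine (TOP) start that they share with ribosomal protein genes.

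The annotated starts of the host genes are printed here as 40 bases of the RefSeq promoter table (GRCm38.p6, the build of the mm10 tables), from 20 bases before the annotated start to 20 bases from the start onward, with the longest pyrimidine run that begins within 10 bases of the start in capitals.
Snhg12, chr4:132308658-132308697, plus strand: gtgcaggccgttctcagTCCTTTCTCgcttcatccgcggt
Snhg1, chr19:8723467-8723506, plus strand: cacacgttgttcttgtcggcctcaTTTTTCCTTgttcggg
Snhg8, chr3:123508317-123508356, minus strand: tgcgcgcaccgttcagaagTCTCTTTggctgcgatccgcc
Gas5, second annotated start, chr1:161035146-161035185, plus strand: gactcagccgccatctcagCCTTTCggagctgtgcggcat
Snhg3, chr4:132353667-132353706, minus strand: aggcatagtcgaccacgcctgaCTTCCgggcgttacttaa
Malat1, chr19:5802653-5802692, minus strand: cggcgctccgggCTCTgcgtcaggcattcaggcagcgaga
The run was 9 bases in Snhg12, 7 in Snhg8 and 6 in Gas5, and in these genes it crossed the annotated start. The run of 9 bases in Snhg1 and that of 5 in Snhg3 began downstream of it, at bases 5 and 3 counted from the start, and are not pyrimidine starts by this annotation. Malat1, shown for contrast as a nuclear RNA, had a run of 4 bases, which was also the median over 32851 promoters. The nuclear RNAs did not all differ from the hosts in this, since Miat had a run of 7 bases, as long as that of Snhg8, and Kcnq1ot1 one of 2. A run of at least 9 bases occurred in 6.87% of them. The first annotated start of Gas5 had a run of 3 bases, so its value depended on which start was read.

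The snoRNA sequences carried by Gas5 and Snhg12 are shown because the tables hold rows of their own for them, which could be set beside their hosts. They are the GENCODE vM21 entries on GRCm38, with the C box (TGATGA) and the D box (CTGA), the paired motifs that give C/D box snoRNAs their name, in capitals, and for the H/ACA snoRNA Snora61 the ACA that lies 3 bases from its 3′ end.
Snord47 in Gas5, chr1:161038082-161038158, plus strand: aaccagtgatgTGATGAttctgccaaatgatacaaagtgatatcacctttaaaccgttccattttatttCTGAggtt
Snord99 in Snhg12, chr4:132310691-132310764, plus strand: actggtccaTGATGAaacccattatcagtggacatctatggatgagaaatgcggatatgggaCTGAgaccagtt
Snora61 in Snhg12, chr4:132310240-132310369, plus strand: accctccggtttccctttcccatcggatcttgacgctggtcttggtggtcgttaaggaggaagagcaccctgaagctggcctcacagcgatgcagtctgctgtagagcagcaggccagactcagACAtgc
These 3 sequences show the motifs found by letter match, which are a description of the entries. The rows that were counted lie inside these entries and are shorter. They span 65 bases for Snord47, 56 for Snord99 and 62 for Snora61, against 77, 74 and 130 printed here.

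Of the 9 RNAs, 8 had an RPKM above 1 in a compared library and were tested. Snhg3, Snhg12 and Kcnq1ot1 fell in knockdown against scr, none was called higher, and 5 were tested and not called. A call needed an FDR below 0.05 together with a change of 1.5-fold or more. Of all 11577 genes tested, 10.6% were called, 5.23% lower and 5.4% higher. At an unadjusted p under 0.05, 4 of the 8 were lower and 1, Neat1, was higher, and DESeq2 called 1 higher, again Neat1. The calls of Snhg3, Snhg12 and Kcnq1ot1 required all 3 knockdown libraries: without any 1 of them none of the 8 was called by edgeR (FDR 0.0674 to 0.140 for these 3), with 3 to 6 of them at an unadjusted p under 0.05, and the share of all genes called went from 10.6% to 2.24% without 25-3, 1.14% without 50-2 and 3.01% without 50-5. The log2 fold changes of the 3 RNAs in these fits lay between -1.30 and -0.98. In bulk RNA of this kind, fewer cells that make an RNA and less of it per cell cannot be told apart.

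**Figure D1:**
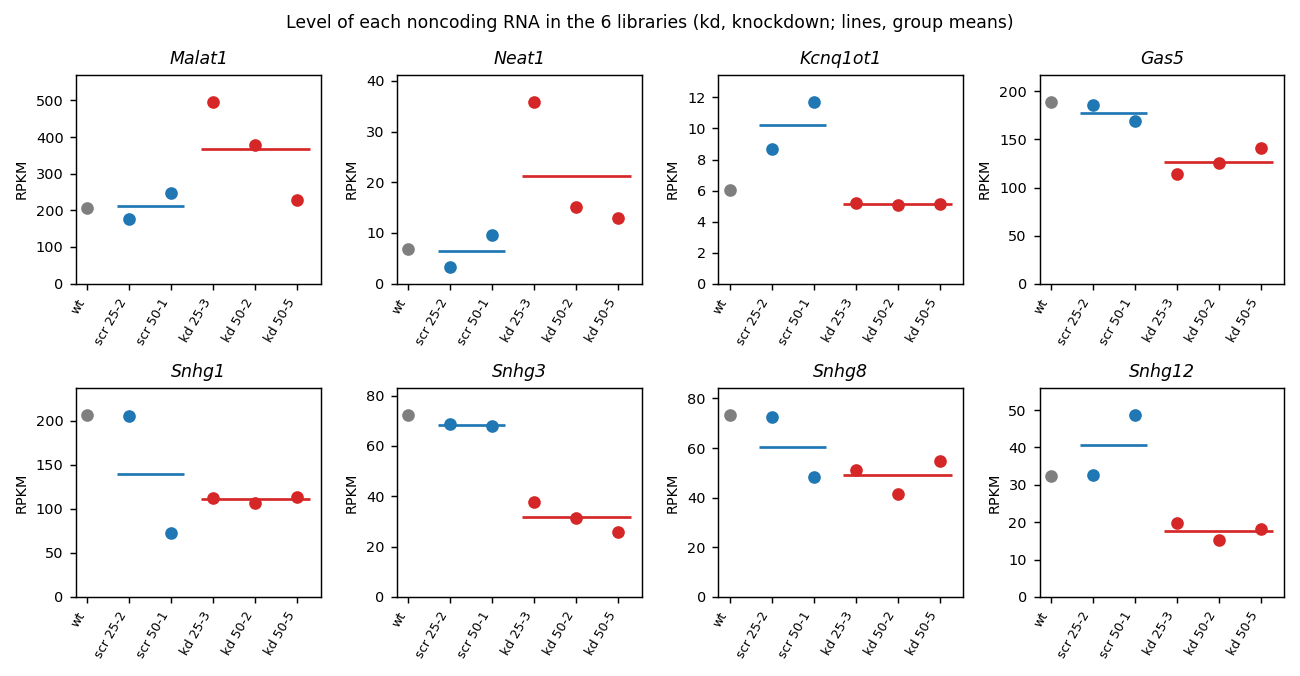
RPKM (linear axes from 0) of 8 of the 9 RNAs in each library, 1 point per library, gray for wt, blue for scr and red for knockdown (kd), with lines at the means of scr and knockdown; Miat is left out because its count was 0 throughout. Snhg3, Snhg12 and Kcnq1ot1 lie lower in all 3 knockdown libraries than in both scr libraries, whereas the scr libraries of Snhg1 (205 and 73.0) lie on both sides of the knockdown values.

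The 9 RNAs differed widely in level. By mean RPKM over the 6 libraries, Malat1 was first among 2505 lncRNA rows and 101st among all 25078 rows. It was followed by Gas5 (rank 4 among lncRNA rows, mean RPKM 154), Snhg1 (6, 136), Snhg8 (13, 56.9), Snhg3 (14, 50.6), Snhg12 (23, 27.8), Neat1 (34, 13.9) and Kcnq1ot1 (54, 6.98). This order rests on the means and did not hold in every library. In scr 25-2 Malat1 (176) was below Gas5 (186) and Snhg1 (205), and the ratio of Gas5 to Snhg1 ran from 0.905 to 2.31 over the libraries. The ranges of Snhg8 (41.6 to 73.3) and Snhg3 (25.7 to 72.2) overlapped. Neat1 exceeded Snhg12 in knockdown 25-3 (35.9 against 19.7), and it was below Kcnq1ot1 in both scr libraries and above it in the other four. Malat1 took 0.126% to 0.355% of all counted reads.

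Malat1 (chr19:5795690-5802672 of mm10, minus strand, 1 exon block of 6983 bases) had an RPKM of 176 in scr 25-2, 248 in scr 50-1 and 207 in wt. In knockdown it was 496 in 25-3, 378 in 50-2 and 227 in 50-5. The third of these values lay between the scr values, so the groups overlapped. The mean was 367 ± 135 (SD, n = 3) in knockdown and 212 ± 50.5 (SD, n = 2) in scr (log2 fold change 0.78, SE 0.352, FDR 0.194). The log2 ratio of knockdown to scr was 1.49 between the libraries numbered 25 and 0.24 between those numbered 50. The mascRNA, a small tRNA-like RNA cut from the 3′ end of Malat1, has a row inside the Malat1 exon block that was listed at 0 counts in all libraries.

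Neat1 (chr19:5824710-5845480, minus strand) lies next to Malat1, with 29.02 kb between their lowest coordinates. Its row is 1 block of 20771 bases that merges the short and the long isoform, of which only the long one builds paraspeckles, and their counts cannot be told apart. RPKM was 6.77 in wt, 3.32 in scr 25-2 and 9.60 in scr 50-1, against 35.9, 15.1 and 12.9 in knockdown 25-3, 50-2 and 50-5. All knockdown values were above both scr values, as for 25.7% of all genes tested. The mean was 21.3 ± 12.7 (SD, n = 3) against 6.46 ± 4.44 (SD, n = 2), with a log2 fold change of 1.71 (SE 0.642, FDR 0.139, edgeR quasi-likelihood test), and DESeq2 called it (log2 fold change 1.71, FDR 0.0125). Over the fits that leave out 1 library the log2 fold change ran from 1.11 without knockdown 25-3 to 2.67 without scr 50-1, and edgeR did not call it in any of these fits. The scr libraries themselves differed 2.89-fold and the knockdown libraries 2.78-fold. The log2 ratio of knockdown to scr was 3.43 between the libraries numbered 25 and 0.54 between those numbered 50. The ratio of Malat1 to Neat1 RPKM was 25.8 and 53.0 in scr, 30.6 in wt and 13.8 to 25 in knockdown, and these ratios did not overlap between scr and knockdown.

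Kcnq1ot1 (chr7:143213111-143296547, minus strand, 1 exon of 83437 bases, antisense to Kcnq1) fell. Its RPKM was 8.69 in scr 25-2, 11.7 in scr 50-1 and 6.06 in wt, against 5.22, 5.06 and 5.14 after knockdown. The knockdown libraries differed 1.03-fold from lowest to highest and all lay below scr and wt, but wt was nearer to knockdown than to either scr library. The mean was 5.14 ± 0.0783 (SD, n = 3) in knockdown against 10.2 ± 2.14 (SD, n = 2) in scr, 2.00-fold lower (log2 fold change -1.0, SE 0.158, FDR 0.0201). With wt added to the controls the log2 fold change was -0.78 and the gene was no longer called (FDR 0.0655). Its row lies antisense inside the Kcnq1 gene, and whether reads were counted by strand is not given in the sources used here, so the part of Kcnq1 reads in its counts was not tested. The row of Kcnq1 itself held at most 0.0116 RPKM, a value over its exons that does not measure reads of its introns.

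The genes of the imprinted domain around Kcnq1ot1 gave little to set beside it. Of 20 listed genes 10 were tested, none was called by edgeR or DESeq2 and 1 was at an unadjusted p under 0.05, with a median log2 fold change of 0.15 against -0.0097 over all genes tested. Cdkn1c, a cell cycle inhibitor silenced in cis by Kcnq1ot1 in other settings, was listed at 0 in all libraries, and Phlda2 had an RPKM of at most 0.0461. Nap1l4, a histone chaperone at the edge of the domain, had an RPKM of 94.1 and 105 in scr and 108 to 114 in knockdown (log2 fold change 0.15, SE 0.119, FDR 0.427). Alleles could not be told apart in these counts. The promoter of Kcnq1ot1 is known for repeated CCAAT boxes, the binding motif of NF-Y, and its 300 bases (RefSeq, GRCm38.p6, chr7:143296498-143296797, minus strand) held the letters CCAAT 3 times, at 188, 148 and 67 bases before the start, here in capitals.
Kcnq1ot1 promoter: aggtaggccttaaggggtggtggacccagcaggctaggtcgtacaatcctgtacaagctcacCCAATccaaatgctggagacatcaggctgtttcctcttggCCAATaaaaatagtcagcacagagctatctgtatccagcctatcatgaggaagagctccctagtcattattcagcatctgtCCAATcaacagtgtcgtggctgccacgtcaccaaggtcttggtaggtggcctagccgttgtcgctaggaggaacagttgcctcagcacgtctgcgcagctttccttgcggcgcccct
At least 3 CCAAT, on either strand, occurred in 3.37% of all promoters and at least 1 in 37.4%. The matches describe the sequence and say nothing of binding in these cells.

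Miat (chr5:112213228-112228948, minus strand) had a count of 0 in every library. Taking 3 counts as the limit that a count of 0 allows, its RPKM was below 0.0103 to 0.0131, depending on the library. This limit covers counting error only. Miat was therefore not detected at this depth, and no fold change is given.

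Among the 5 snoRNA hosts, Snhg3 and Snhg12 fell, and the other three were not called. Both lie on chromosome 4, on opposite strands and 43.255 kb apart by their lowest coordinates, and the snoRNAs of Snhg12 are mostly of the H/ACA kind, which guide pseudouridylation. Snhg3 (chr4:132351933-132353686, minus strand) had an RPKM of 68.6 and 67.9 in scr, 72.2 in wt, and 37.8, 31.3 and 25.7 in knockdown 25-3, 50-2 and 50-5. The controls differed by far less than the gap to knockdown, and the mean was 31.6 ± 6.08 (SD, n = 3) against 68.3 ± 0.549 (SD, n = 2), 2.18-fold lower (log2 fold change -1.12, SE 0.204, FDR 0.0284). Snhg12 (chr4:132308678-132311024, plus strand) had an RPKM of 32.7 and 48.7 in scr, 32.3 in wt, and 19.7, 15.2 and 18.2 in knockdown. The groups did not overlap, but the scr libraries differed 1.49-fold. The mean was 17.7 ± 2.3 (SD, n = 3) against 40.7 ± 11.3 (SD, n = 2), 2.31-fold lower (log2 fold change -1.21, SE 0.238, FDR 0.0348). Without scr 50-1 the log2 fold change of Snhg12 was -0.90 and the gene was not called (FDR 0.0665), and with 25 or 50 as an added term in the model it was -1.21 and not called (FDR 0.0631).

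Gas5 (chr1:161034916-161038539, plus strand), named for its rise in cells that stop growing and the source of several C/D box snoRNAs, had an RPKM of 186 and 169 in scr, 189 in wt, and 115, 125 and 141 in knockdown. All knockdown values lay below both scr values and wt. The log2 fold change was -0.50 (SE 0.145, FDR 0.0815), with a mean of 127 ± 13.3 (SD, n = 3) against 177 ± 12.0 (SD, n = 2), a difference of 1.41-fold that lies under the fold threshold. Counting Gas5, 4 of the 8 RNAs tested had all knockdown libraries below both scr libraries and 1 had all above, against 24.5% below and 25.7% above among all genes tested.

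Snhg1 (chr19:8723487-8726326, plus strand), host of Snord22 and other C/D box snoRNAs, was at 205 RPKM in scr 25-2 and 206 in wt, but 73.0 in scr 50-1. The knockdown libraries, at 113, 106 and 114, lay between the scr libraries. The log2 fold change was -0.35 (SE 0.411, FDR 0.608). Its direction depended on the scr library used: without scr 25-2 it was 0.60 and called higher (FDR 0.0441, with 19.9% of all genes then called), and without scr 50-1 it was -0.90 and called lower (FDR 0.0214, with 11.3% called). Snhg8 (chr3:123507552-123508336, minus strand), host of Snora24, had an RPKM of 72.3 and 48.3 in scr, 73.3 in wt, and 51, 41.6 and 55.0 in knockdown. The groups overlapped and the log2 fold change was -0.31 (SE 0.228, FDR 0.402), or 0.03 without scr 25-2.

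**Figure D2:**
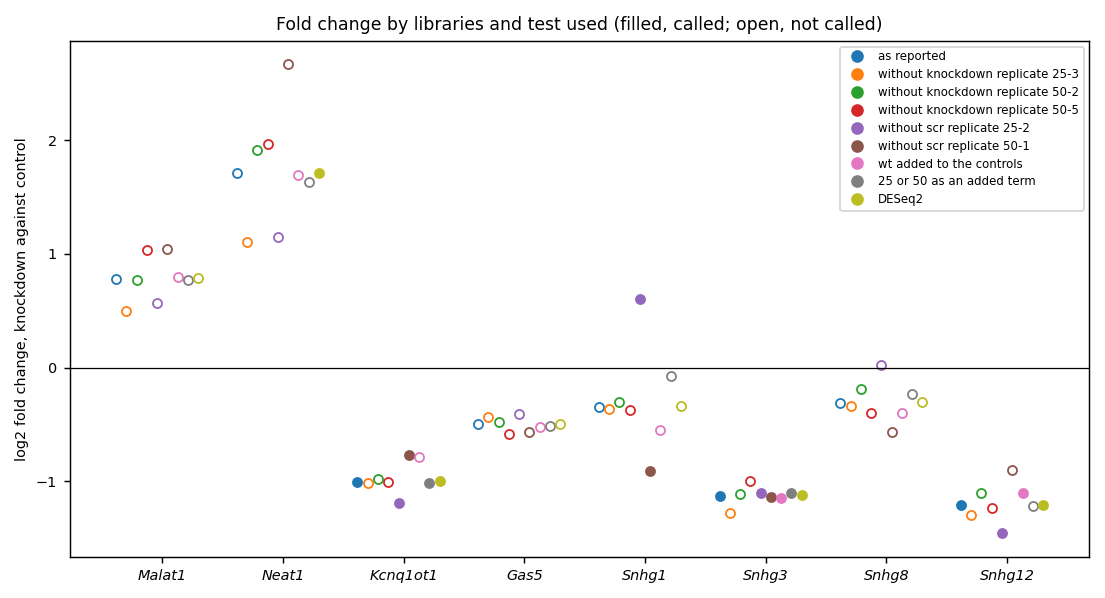
Log2 fold changes of the 8 tested RNAs as reported and in 8 other fits, 1 color per fit: each library left out, wt added to the controls, 25 or 50 as an added term, and DESeq2; filled points were called. Kcnq1ot1, Snhg3, Snhg12 and Gas5 stay below 0 and Malat1 and Neat1 above 0 in each fit shown, while Snhg1 ranges from -0.90 to 0.60.

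The snoRNA rows inside the hosts were read beside them. Reads at such a row can come from the host's intron or from the snoRNA, and these cannot be told apart. Snord22 had counts of 1303 in scr 25-2, 368 in scr 50-1, 1337 in wt, and 1374, 1065 and 1001 in knockdown. It was low in the same scr library as its host Snhg1, with a log2 fold change of 0.30 (FDR 0.730) that turned to -0.33 without scr 50-1 and to -0.03 with wt as a control. In CPM, counts scaled to the library total, relative to the scr mean, Snord22 lay above Snhg1 in each of the 3 knockdown libraries. The row of Snord47, part of the entry printed above, had counts of 174 and 144 in scr and 165, 156 and 118 in knockdown. The groups overlapped (log2 fold change -0.29, against -0.50 for its host Gas5).

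The 4 rows inside Snhg12 held few reads. Snord99 had counts of 87 and 57 in scr, 75 in wt and 43, 27 and 26 in knockdown (log2 fold change -1.33, SE 0.400, FDR 0.0860). Snora61 had 122 and 96 in scr, 122 in wt and 63, 73 and 60 in knockdown (log2 fold change -0.91, SE 0.283, FDR 0.0937). Both had all knockdown counts below the controls, on the same side as their host at -1.21, but neither was called. Snora44 (32 and 18 counts in scr, 9 to 21 in knockdown) and Snora16a (52 and 48 in scr, 29 to 43 in knockdown) had log2 fold changes of -0.83 and -0.65. Of the 6 rows tested none was called by edgeR or DESeq2, 2 were at an unadjusted p under 0.05 and 5 had a fold change below 0. Over all 96 snoRNA rows tested none was called, 10 were at an unadjusted p under 0.05 and 2 were called by DESeq2, with 72 below 0 and a median log2 fold change of -0.28. Snora24 in Snhg8 was listed at 0 in all libraries, as was the mascRNA, and in both cases the row lies inside the exon block of its host.

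**Figure D3:**
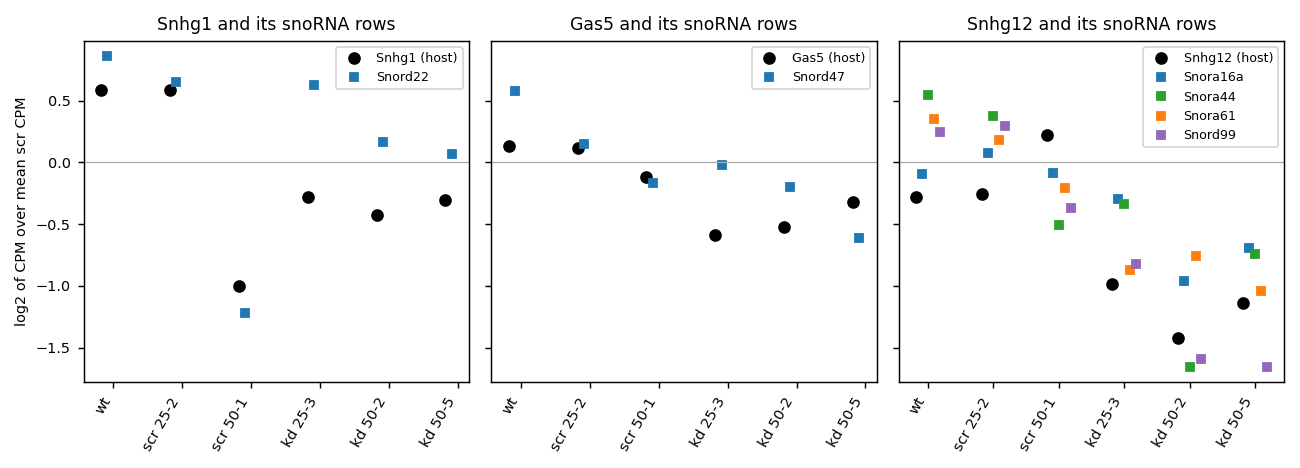
CPM (counts scaled to the library total) of the hosts Snhg1, Gas5 and Snhg12 (circles) and of the snoRNA rows inside them (squares) in each library, as log2 of the ratio to the mean of the 2 scr libraries. Snhg1 and Snord22 are both low in scr 50-1, and Snhg12 and its 4 snoRNA rows lie below 0 in all 3 knockdown libraries.

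Other snoRNA host noncoding RNAs were read from a separate list in the same libraries. The list was chosen with earlier results of these data known, so it is no independent check of the direction. Of 14 tested, 3 fell (Zfas1, Epb41l4aos and Snhg6), none was called higher by edgeR or DESeq2 or had an unadjusted p under 0.05 in that direction, and all 14 fold changes were below 0, against 50.9% of all genes tested. With libraries left out in turn 12 to 14 were below 0, and 13 under total-count scaling. Their median log2 fold change was -0.45, and over all genes tested 5.23% were called lower. Zfas1, which carries snoRNAs of the Snord12 group, had an RPKM of 172 and 253 in scr and 87.6, 81.0 and 63.1 in knockdown (log2 fold change -1.47, SE 0.220, FDR 0.0180). Epb41l4aos had 67.9 and 73.0 in scr and 36.3, 34.7 and 31.3 in knockdown (-1.06, SE 0.153, FDR 0.0168), and Snhg6 had 93.6 and 98.4 against 58.3, 52.3 and 66.8 (-0.71, SE 0.159, FDR 0.0468). Noncoding RNAs in general also leaned lower: of 362 lncRNA rows tested, 238 had a log2 fold change below 0, with a median of -0.30, and 8.01% were called lower against 3.59% higher. By library, the median of the 5 host RNAs named above, on the log2 scale relative to the scr mean, was -0.63, -0.51 and -0.33 in knockdown 25-3, 50-2 and 50-5 and 0.09 in wt. That of the 14 other hosts was -0.44, -0.38 and -0.55 in knockdown and -0.07 in wt.

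Protein-coding hosts carry snoRNAs in the introns of genes of the translation machinery. Of 40 tested, 3 fell and none was called higher by edgeR (4 at an unadjusted p under 0.05, 1 by DESeq2), with a median log2 fold change of -0.22. This count lies near the 5.23% of all genes called lower. Eef2, a translation elongation factor, had an RPKM of 1350 and 1233 in scr and 909, 839 and 774 in knockdown (log2 fold change -0.63, SE 0.138, FDR 0.0441). Rpl13a, a ribosomal protein, had 521 and 506 against 351, 292 and 309 (-0.71, SE 0.134, FDR 0.0314). Eif4a2, a translation initiation helicase, had 43.2 and 38.4 against 25.7, 25.1 and 29.3 (-0.62, SE 0.140, FDR 0.0473). All 3 calls depended on the setting. None of the 3 was called with 25 or 50 as an added term, or when any 1 knockdown library was left out. Eef2 and Eif4a2 were also not called under total-count scaling or without the RPKM filter, nor was Eef2 with wt added to the controls.

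Of 21 proteins tested that bind or mature snoRNAs, 2 rose, against 5.4% of all genes called higher, none was called lower by edgeR (1 at an unadjusted p under 0.05, 1 by DESeq2) and 19 had a fold change above 0 (16 to 19 with libraries left out in turn), with a median of 0.25. The 2 below 0 were Pih1d1 (-0.63) and Znhit6 (-0.22), named after their values were seen. Nhp2, a core protein of H/ACA particles, had an RPKM of 92.2 and 109 in scr, 128 in wt and 160, 179 and 164 in knockdown (log2 fold change 0.72, SE 0.137, FDR 0.0314). Nop10, its partner in the same particles, had 72.1 and 58.5 in scr, 86.9 in wt and 109, 103 and 104 in knockdown (0.68, SE 0.145, FDR 0.0424). Nop10 was not called with wt added to the controls or under total-count scaling. In wt the median of this list was 0.35 relative to the scr mean, which lies within its range in knockdown (0.15 to 0.41).

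**Figure D4:**
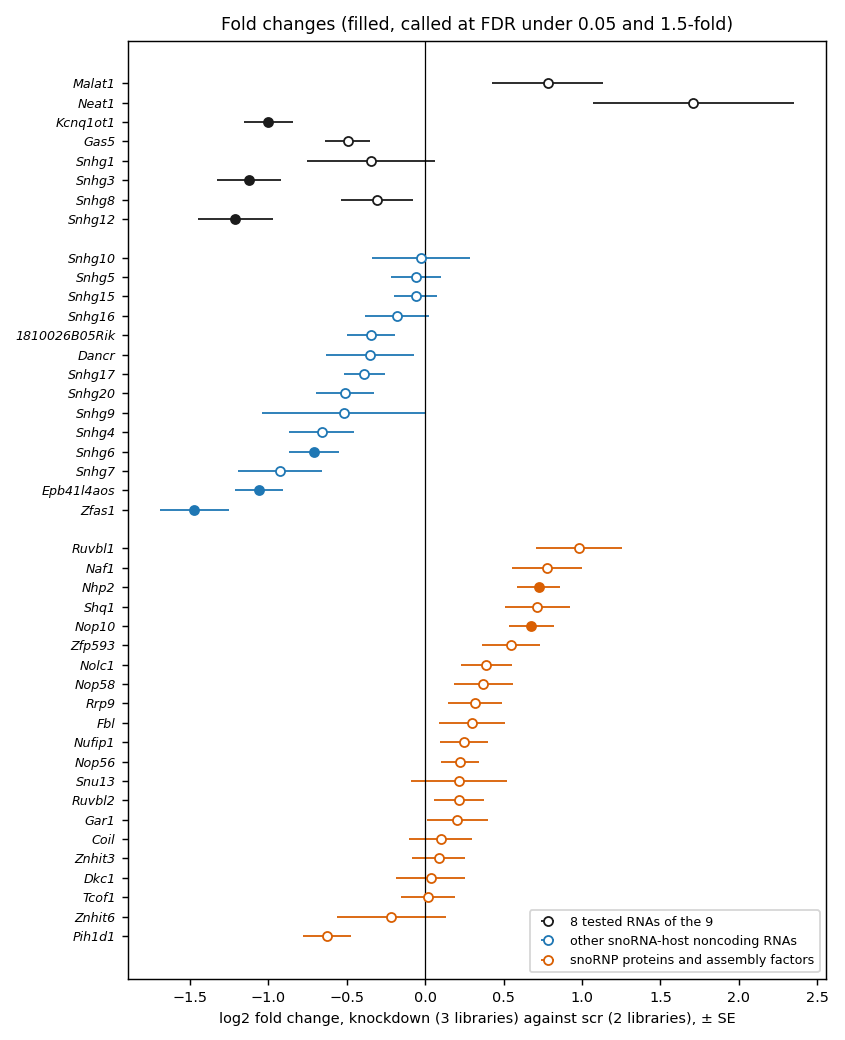
Log2 fold changes, knockdown (3 libraries) against scr (2 libraries), of the 8 tested RNAs (black), 14 other snoRNA host RNAs (blue) and 21 snoRNP proteins and assembly factors (orange), with bars of 1 standard error either side from the edgeR fit and called genes filled. The 14 other hosts lie below 0 and 19 of the 21 proteins above 0, and 3 genes of each set of RNAs and 2 of the proteins are filled.

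Among 20 paraspeckle proteins tested, the partners of Neat1, the zinc finger gene Zc3h6 fell (RPKM 1.17 and 1.30 in scr, 0.309, 0.302 and 0.516 in knockdown; log2 fold change -1.73, SE 0.345, FDR 0.0361), none was called higher by edgeR or DESeq2 or had an unadjusted p under 0.05 in that direction, and the median was -0.11. Among 23 nuclear speckle and splicing factors tested, where Malat1 resides, 2 fell and none was called higher by edgeR (1 at an unadjusted p under 0.05, 0 by DESeq2), with a median of -0.09. Over all genes tested 5.23% were called lower, so that 1 of 20 and 2 of 23 lie near the background. Zc3h6 passed the RPKM filter of 1 only through the scr libraries. Son, the large core protein of speckles, had an RPKM of 73.2 and 76.4 in scr, 56.3 in wt and 42.7, 45.7 and 43.5 in knockdown (log2 fold change -0.78, SE 0.115, FDR 0.0173). Srsf4, an SR splicing factor, had 15.1 and 18.1 against 10.7, 10.3 and 11.2 (-0.64, SE 0.136, FDR 0.0417).

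Of 26 factors tested that process or degrade such RNAs, 4 rose and none was called lower by edgeR (1 at an unadjusted p under 0.05, 1 by DESeq2), against 5.4% of all genes called higher. Their median log2 fold change was 0.17, with 19 above 0 and 7 below. With 25 or 50 as an added term 1 of the 26 was called higher, and Dis3 and Elac2 were not. When a knockdown library was left out, 0 to 1 were called higher. Mettl16, an RNA methyltransferase that binds the triple helix at the 3′ end of Malat1, had an RPKM of 19.7 and 22.9 in scr, 26.5 in wt and 52.0, 48.4 and 39.9 in knockdown (log2 fold change 1.12, SE 0.165, FDR 0.0174). Elac2, the tRNA 3′ end nuclease that trims the mascRNA, had 10.3 and 11.8 in scr and 20.2, 18.1 and 17.3 in knockdown (0.73, SE 0.140, FDR 0.0327). Dis3, a nuclease of the RNA exosome, had 21.5 and 18.8 against 32.9, 33.3 and 35.3 (0.73, SE 0.132, FDR 0.0280), and Pop4, a subunit of RNase P, which makes the cut that ends Malat1, had 21.2 and 24.5 against 37.4, 34.4 and 36.8 (0.65, SE 0.138, FDR 0.0409). Of 19 factors of nonsense-mediated decay tested, Ncbp1, the large cap-binding subunit, rose (RPKM 37.2 and 35.2 in scr, 74.0, 66.2 and 62.9 in knockdown; 0.89, SE 0.133, FDR 0.0179). None was called lower by edgeR or DESeq2 or had an unadjusted p under 0.05 in that direction, and the median was 0.08.

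Of 18 other nuclear or regulatory noncoding RNAs tested, 2 fell, a count near the 8.01% of lncRNA rows called lower, and none was called higher by edgeR or DESeq2 (2 at an unadjusted p under 0.05). Their median log2 fold change was -0.33, beside -0.30 over the lncRNA rows. Xist, the RNA that coats the inactive X chromosome, had an RPKM of 108 and 94.4 in scr, 68.6 in wt and 59.7, 54.9 and 61.4 in knockdown (log2 fold change -0.80, SE 0.138, FDR 0.0248). As for Kcnq1ot1, wt lay nearer to knockdown than to scr, and Xist was not called with wt added to the controls. Lncpint, a p53-induced RNA, had 3.80 and 4.66 in scr, 2.95 in wt and 1.38, 1.04 and 1.19 in knockdown (-1.82, SE 0.267, FDR 0.0171). Of 5 small structural RNAs tested, among them Rpph1, the RNA of RNase P, and Rmrp, none was called by edgeR or DESeq2, 1 was at an unadjusted p under 0.05 and the median was 0.04. Over all 14 lists together 8 genes were called higher and 11 lower, and when any 1 knockdown library was left out 0 to 3 were called higher and 0 to 2 lower.

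The genes around the RNAs were read in the same fit, by the distance between the lowest coordinates of the rows. Within 100 kb of Malat1, 7 genes were tested, of which 5 rose and none was called lower by edgeR or DESeq2 or had an unadjusted p under 0.05 in that direction, with a median log2 fold change of 1.48. Among all genes tested 5.4% were called higher, and 30 of 439 on chromosome 19. Within 100 kb of Neat1, a window that shares most of these genes, 6 of 8 rose, with a median of 1.46. Znrd2 (RPKM 12.7 and 15.5 in scr, 28.4 in wt, 55.9, 52.6 and 47.0 in knockdown; log2 fold change 1.86, SE 0.175, FDR 0.00755) moved evenly in the knockdown libraries. So did Ltbp3, a binding protein of latent TGF-beta (7.76 and 10.2 in scr, 23.9, 28.1 and 28.7 in knockdown; 1.57, SE 0.180, FDR 0.0101), and Fam89b (10.5 and 13.5 in scr, 30.0, 34.3 and 33 in knockdown; 1.42, SE 0.173, FDR 0.0116). Dpf2, a subunit of chromatin remodeling complexes, had 7.35 and 6.12 in scr and 21.5, 13.3 and 20.7 in knockdown (1.45, SE 0.260, FDR 0.0280), and Slc25a45, a carrier of the mitochondrial family, rose from a low level (0.384 and 0.368 in scr, 3.25, 1.99 and 4.07 in knockdown; 3.03, SE 0.422, FDR 0.0156). The median of the 7 genes near Malat1 was 1.42, 1.52 and 1.56 relative to the scr mean in knockdown 25-3, 50-2 and 50-5 and 0.54 in wt, an even level where Malat1 itself ranged from 496 to 227 RPKM. Called genes near Malat1 numbered 1 to 4 when a knockdown library was left out. Slc25a45 passed the RPKM filter of 1 only through the knockdown libraries, so at its scr level it entered the test only by a rise. Over 1 Mb, a width chosen after the values were seen, 68 genes were tested, 10 rose, 51 had a fold change above 0 and the median was 0.37. The fold change of Malat1 less the median of its neighbors was -0.70 on the log2 scale at 100 kb and 0.41 at 1 Mb, so its sign depended on the width, and that of Neat1 was 0.25 and 1.34. The 10 that rose became 4, 2 and 5 without knockdown 25-3, 50-2 and 50-5. In these fits 2.24%, 1.14% and 3.01% of all genes were called in either direction, against 10.6% as reported. The median over the 439 genes tested on chromosome 19 was 0.06.

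The genes near Snhg3 and Snhg12 lay on the other side. Within 100 kb of Snhg12, 10 rows were tested, 4 of which are the snoRNA rows inside it, and all 10 had a fold change below 0, with a median of -0.74. One of them, Phactr4, a regulator of actin and of protein phosphatase 1, fell (RPKM 21.9 and 24.6 in scr, 15.5 in wt, 13.4, 12.5 and 11.9 in knockdown; log2 fold change -0.90, SE 0.125, FDR 0.0156). Rcc1, which adjoins Snhg3 and codes for the chromatin-bound exchange factor of Ran, had a log2 fold change of -0.38 (SE 0.160, FDR 0.174), and Rnu11, the U11 RNA of the minor spliceosome, one of -1.14 (SE 0.342, FDR 0.0849). Rcc1 was named after its values were seen. Over 1 Mb, 30 rows were tested, again with the 4 snoRNA rows inside Snhg12, and 6 fell. Of the 30, 26 had a fold change below 0, and the median was -0.57. None was called higher by edgeR or DESeq2 or had an unadjusted p under 0.05 in that direction. Less the median of their neighbors, Snhg3 was at -0.29 on the log2 scale at 100 kb and -0.55 at 1 Mb, and Snhg12 at -0.47 and -0.64. These medians all include the 4 snoRNA rows, so Snhg12 is in part set against itself. At 100 kb the median for Snhg3, -0.83, is the value of Snora44, a row of 9 to 32 counts. Over all genes tested 5.23% were called lower, and on chromosome 4 31 of 702, with a median of 0.10. None of the 30 rows was called when any 1 knockdown library was left out. Those fits called 1.14% to 3.01% of all genes in either direction.

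Around Snhg1, 15 genes were tested within 100 kb and none was called by edgeR (1 at an unadjusted p under 0.05, 1 by DESeq2). Their median was 0.51 in scr 25-2 and -0.51 in scr 50-1 relative to the mean of both, so that the genes around Snhg1 were lower in scr 50-1 on balance, as Snhg1 was, and 0.50 to 0.68 in knockdown. Snord22, a row inside Snhg1, is among the 15. Around Kcnq1ot1, 17 genes were tested within 1 Mb, with a median of 0.12. Of these 17, Lsp1 rose and Krtap5-5 fell, beside 5.4% of all genes tested called higher and 5.23% lower. Lsp1 had an RPKM of 0.0391 and 0.0539 in scr, and Krtap5-5 had 0.323, 0.210 and 0.128 in knockdown. Both passed the RPKM filter of 1 only through the other group. No other gene row began within 100 kb of Kcnq1ot1.

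**Figure D5:**
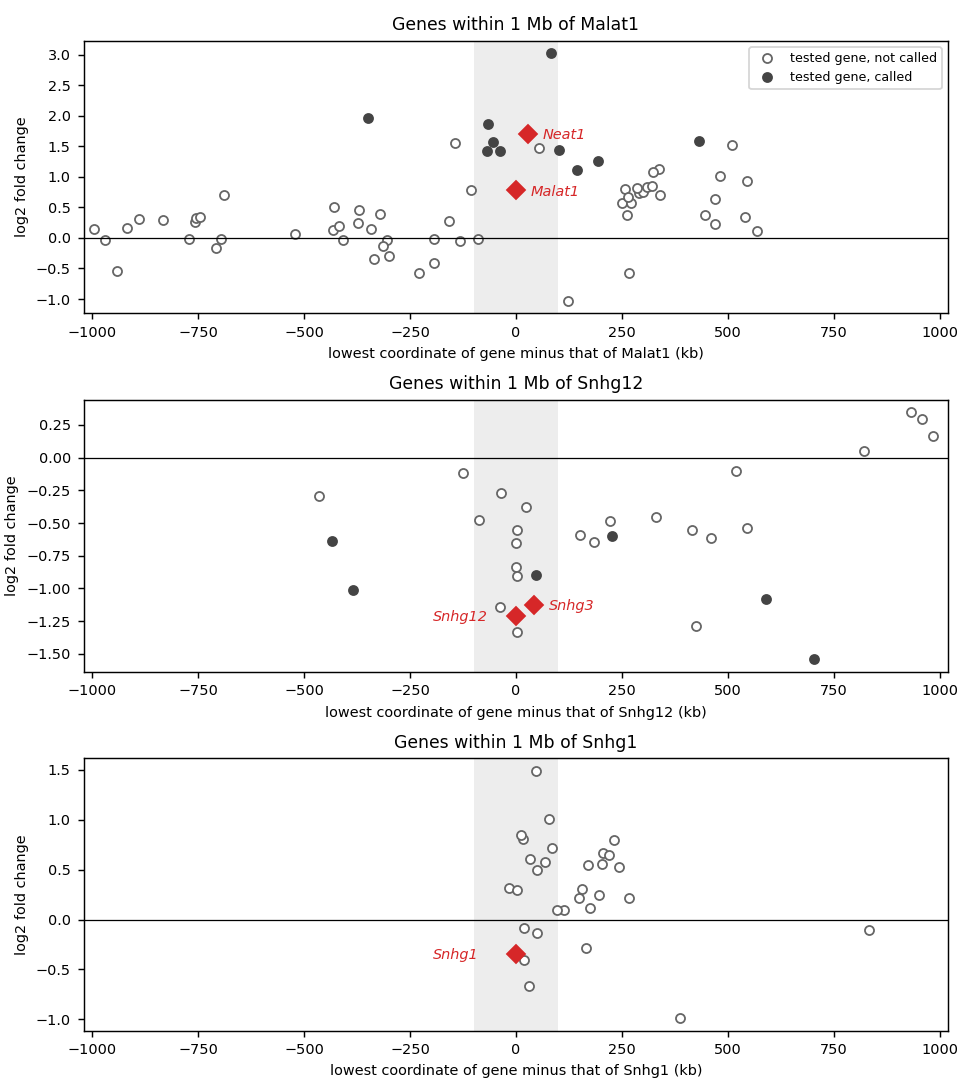
Log2 fold changes of the tested genes within 1 Mb of Malat1, Snhg12 and Snhg1 (circles, filled where called; the RNAs themselves as red diamonds) against the distance in kb between lowest coordinates, with the 100 kb window shaded. The 100 kb window of Malat1 has 5 called genes above 0, all tested genes in that of Snhg12 lie below 0, and none is called near Snhg1.

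The genes most like Malat1 and Gas5 in pattern, the nuclear RNA and the host with the highest mean RPKM, were sought by Pearson correlation of log2(RPKM + 0.1) over the 6 libraries, among 3761 genes whose RPKM averaged 20 or more. For Malat1 these were Ecd (r = 0.997), Myc (0.992) and Cstf1 (0.991), out of 68 genes above 0.9. Myc, a transcription factor of growth, stood at an RPKM of 77 in scr 25-2, 88.0 in scr 50-1, 80.6 in wt, and 118, 103 and 80.9 in knockdown, which put the 6 libraries in the same order as Malat1 did. For Gas5 they were Rnu11 (0.985), Atp5o (0.984) and Pcbd1 (0.984), out of 118 above 0.9. The 6 points share a cell line and the split into knockdown and control, and the values describe likeness only.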

How the data were processed

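RNA of Hepa1-6 cells was sequenced in 6 libraries (1 wt, 2 scr, 3 knockdown), as single reads after ribosomal RNA depletion. The authors aligned reads to mm10 with TopHat2, assigned them to RefSeq genes with HTSeq, and deposited the raw counts. The strand setting is not given in the sources used here, so overlapping and antisense rows are uncertain. The authors also deposited RPKM values, computed with TMM library sizes from edgeR. Columns were matched to samples by name, with 0 left unmatched.

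All 3 knockdown libraries were compared with both scr libraries, since the labels do not say which libraries are the 2 clones of the study's methods. Counts were tested with edgeR 4.0.16 in R 4.3.3 (quasi-likelihood test, TMM, Benjamini-Hochberg adjustment over the 11577 genes that passed an RPKM of 1 in 1 or more of the 5 compared libraries), which was also tested on simulated data. A call needed an FDR below 0.05 and a change of 1.5-fold or more. Standard errors were derived from the F statistic. The common biological coefficient of variation was 0.272. The precision that depth allows was lowest in the rows with few reads, such as those inside Snhg12 (9 to 122 counts). Alternatives were DESeq2 1.42.0, limma 3.58.1 on log2(RPKM + 0.1) and log2(RPKM + 1), other scalings and filters, wt as a control, 25 or 50 as a term, and each library left out. The width of 1 Mb, the CCAAT motif and the counts of list directions by setting were added after the data were seen.

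The 9 RNAs and 14 gene lists were chosen with earlier results of these data known. Named genes are the 9 RNAs, the called genes of each list (all if 5 or fewer), the called genes within 100 kb, and the 3 genes nearest in pattern to Malat1 and to Gas5. One gene that meets this rule is left out of the text. Cell type markers, genes of the Kcnq1 domain and a few others were named outside this rule, after their values were seen. Promoters and positions came from RefSeq (GRCm38.p6), with an entry for 8 of the 9 RNAs, and snoRNA sequences from GENCODE vM21 on GRCm38. Motifs were searched on both strands in 300 bases (250 before the start, 50 after): CACGTG was in 7.15% of all promoters and in none of these, TGACGTCA in 1.79% (Gas5), GGGCGG in 35.7% (Gas5, Miat, Snhg1, Snhg8), TATAAA in 13.6% (Snhg1, Snhg3, Snhg8) and CCAAT in 37.4% (Kcnq1ot1, Snhg3, Snhg8). Tables and plots were made in Python 3.11.15 (pandas 2.3.3, matplotlib 3.10.9).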

Additional observations from a re-analysis of the deposited data

Results flagged for a closer look

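Snhg1 moved in opposite directions against the scr libraries of the same number. The log2 ratio of its RPKM to that of the scr library was -0.87 in knockdown 25-3 against scr 25-2, and 0.54 and 0.64 in knockdown 50-2 and 50-5 against scr 50-1. The difference was not tested. The scr libraries themselves held 205 (25-2) and 73.0 RPKM (50-1) of Snhg1, and the meaning of 25 and 50 is not given in the sources used here.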

How the results depend on the processing

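Kcnq1ot1, Snhg3, Snhg12 and Gas5 had log2 fold changes below 0, and Malat1 and Neat1 above 0, in each of 15 alternative fits, with FDRs of 6.16e-07 to 0.104 for Kcnq1ot1 (called in 11), 8.27e-05 to 0.129 for Snhg3 (12), 0.000328 to 0.140 for Snhg12 (10), 0.0125 to 0.284 for Neat1 (1), 0.0214 to 0.921 for Snhg1 (2), 0.0180 to 0.244 for Gas5, 0.0891 to 0.409 for Malat1 and 0.121 to 0.938 for Snhg8 (0 for these 3).

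Leaving out each library in turn gave log2 fold changes of -1.19 to -0.77 for Kcnq1ot1, -1.28 to -0.998 for Snhg3, -1.46 to -0.90 for Snhg12, 1.11 to 2.67 for Neat1, 0.50 to 1.05 for Malat1, -0.58 to -0.41 for Gas5, -0.90 to 0.60 for Snhg1, -0.57 to 0.0273 for Snhg8 and -0.33 to 1.46 for Snord22. Called members then numbered 0 to 3 lower and 0 to 1 higher, called genes 42 to 1127 lower and 89 to 1146 higher, and called list genes 0 to 14 lower and 0 to 15 higher. These fits have fewer samples. Each of the 3 knockdown libraries ends the calls of Kcnq1ot1, Snhg3 and Snhg12 when left out.

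With wt as a control Kcnq1ot1 was at -0.78 and Snord22 at -0.0256. DESeq2 called Neat1 (1.71), which gave 1 member higher, and called 1167 genes higher and 1155 lower, with 16 and 17 list genes. With 25 or 50 as an added term Snhg12 was at -1.21 and not called, 388 genes were called lower, and 4 list genes in each direction against 8 higher and 11 lower as reported. Without the RPKM filter 7 list genes were called lower. Less the median of genes within 1 Mb, Malat1 was at 0.41, Snhg3 at -0.55 and Snhg12 at -0.64, and within 100 kb at -0.70, -0.29 and -0.47. For Snhg3 and Snhg12 the medians include the snoRNA rows inside Snhg12. The cause of these changes was not tested. No paired analysis was possible because the replicate names of the groups share no number that marks a pair, apart from the 25 or 50 used as a term. With 2 scr libraries, a difference such as that of Snhg1 cannot be placed.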
